A study of Mus musculus with 2 samples.

Results

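The VEGF and angiopoietin axis was followed here through 9 genes, *Vegfa*, *Vegfc*, *Kdr*, *Flt1*, *Flt4*, *Angpt1*, *Angpt2*, *Tek* and *Apln*. They were taken by symbol from the 27998 gene rows of each count matrix, and each symbol had 1 row. The 9 genes were not used to cluster or to name the cells. The data were single-cell RNA libraries from healing dorsal skin of male wild-type C57BL/6J mice aged 6 to 8 weeks, which had large circular wounds 1.8 cm across. The sample labels give PBS for the wounds of WT_LW, whereas the study's account of healing speed gives a control oligodeoxynucleotide for the group of that name, so the vehicle is uncertain. In TLR9agonist_LW the wounds received 4 μg of ODN2395, a CpG oligodeoxynucleotide agonist of the DNA sensor TLR9, on days 0, 3 and 6 after wounding. Tissue from the wound centre was taken 2 days after scab detachment, and cells of several mice were pooled, so each group had 1 library. No test between the groups was possible. Differences between mice, preparations and treatments cannot be told apart, and every 95% interval below covers counting error only.

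VEGF proteins are secreted ligands that bind receptor tyrosine kinases on endothelium. VEGFA, encoded by *Vegfa*, acts mainly through VEGFR2 (*Kdr*), while VEGFR1 (*Flt1*) binds VEGFA tightly and can act as a decoy, and VEGFC (*Vegfc*) acts through VEGFR3 (*Flt4*), the main receptor of lymphatic growth. The angiopoietins act on the receptor Tie2 (*Tek*): ANGPT1 from perivascular and stromal cells stabilises vessels, and ANGPT2, released by endothelium, often opposes it during remodelling. Apelin (*Apln*) is a peptide made by sprouting endothelial cells that binds the receptor encoded by *Aplnr*.

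The stretches of DNA before the RefSeq transcription starts of *Kdr*, *Flt1*, *Tek* and *Apln* are shown because these 4 genes carried the endothelial results and had an entry in the RefSeq promoter table (assembly GRCm38.p6). Each runs for 250 bases up to the start, 5′ to 3′ on the strand of the gene. The stretch of *Kdr* lies at chr5:75978456-75978705 on the minus strand, and that of *Flt1* at chr5:147726012-147726261 on the minus strand. The stretch of *Tek* lies at chr4:94739039-94739288 on the plus strand, and that of *Apln* at chrX:48034854-48035103 on the minus strand. Capitals mark GGAAG or its reverse complement CTTCC, a form of the letters bound by ETS factors, a family active in endothelium. Shorter or other forms of these letters were not searched and are not marked. ACGTG and its reverse complement CACGT, a form of the core of hypoxia response elements, were searched in the same way and were found in none of the 4 stretches. The form GCGTG of that core was not searched and is not marked, so its absence cannot be read from this.
Kdr: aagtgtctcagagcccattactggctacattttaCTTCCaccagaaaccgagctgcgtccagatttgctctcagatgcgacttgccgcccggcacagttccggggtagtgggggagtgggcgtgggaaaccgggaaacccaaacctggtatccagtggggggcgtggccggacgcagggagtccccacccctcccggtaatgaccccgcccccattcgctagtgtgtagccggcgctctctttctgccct
Flt1: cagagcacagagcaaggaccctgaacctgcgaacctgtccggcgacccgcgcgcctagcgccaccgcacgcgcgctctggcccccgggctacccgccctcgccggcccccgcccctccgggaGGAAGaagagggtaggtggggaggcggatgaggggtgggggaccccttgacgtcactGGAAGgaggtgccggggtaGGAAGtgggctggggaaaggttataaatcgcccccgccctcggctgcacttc
Tek: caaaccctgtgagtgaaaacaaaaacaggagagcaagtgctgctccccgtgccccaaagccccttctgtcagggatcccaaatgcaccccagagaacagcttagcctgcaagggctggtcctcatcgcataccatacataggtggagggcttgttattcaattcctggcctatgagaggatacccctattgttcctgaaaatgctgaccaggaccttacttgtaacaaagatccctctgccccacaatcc
Apln: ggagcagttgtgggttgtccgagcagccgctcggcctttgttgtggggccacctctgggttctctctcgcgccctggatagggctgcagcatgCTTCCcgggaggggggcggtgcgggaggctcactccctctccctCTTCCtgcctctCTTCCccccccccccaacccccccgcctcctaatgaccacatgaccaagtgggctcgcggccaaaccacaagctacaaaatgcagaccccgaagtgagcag
GGAAG or CTTCC occurred 1 time before *Kdr*, 3 times before *Flt1*, 3 times before *Apln* and 0 times before *Tek*. Of 32807 promoter entries of the same length, 64.1% held GGAAG or CTTCC and 16.6% held ACGTG or CACGT. These matches describe the letters and were not tested as sites.

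After filtering and removal of predicted doublets, 10395 cells with a median of 5519 unique molecular identifiers (UMIs) remained in WT_LW and 11811 cells with a median of 6080 UMIs in TLR9agonist_LW. The mitochondrial share had a median of 2.89% and 2.00%, and 47 cell barcodes occurred in both libraries. Clusters were named from marker genes into 11 classes. Levels are UMIs of a gene per 1000000 UMIs of the class (CPM), and ratios are log2 of TLR9agonist_LW over WT_LW. Clusters and sub-clusters that could not be named or were led by genes of another class held 1436 and 1095 cells.

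Blood endothelial cells, the class that carries most of the receptors, made up 592 of the WT_LW cells, 5.70% (exact Clopper-Pearson 95% interval, 5.26 to 6.16), and 344 of the TLR9agonist_LW cells, 2.91% (2.62 to 3.23). The log2 ratio of the shares was -0.97 (-1.16 to -0.77), so the share was lower in the agonist library by more than counting error. The 15 blood endothelial markers, among them *Pecam1*, *Cdh5* and *Cldn5*, were all detected in the class in both libraries, with a summed level of 8894 and 9446 CPM. Marker lists of the other 10 classes stood at 0.0929% to 2.63% of the level in their own class in WT_LW and at 0.0875% to 3.23% in TLR9agonist_LW. The keratinocyte list differed most among them, with 472 and 1257 CPM summed. Its part in the endothelial values was not tested, although no member gene reached 100 CPM in keratinocytes.

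**Figure D1:**
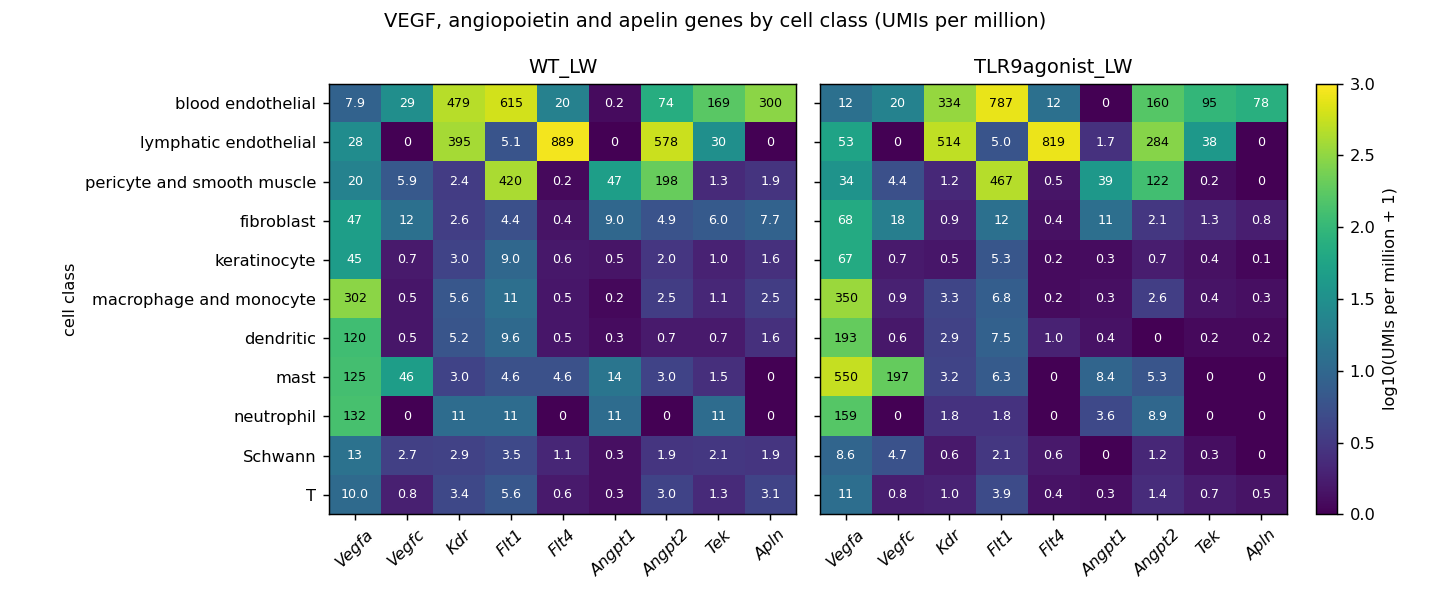
Levels of the 9 genes (columns) in the 11 cell classes (rows) of each library, printed as CPM and coloured by log10(CPM + 1). *Vegfa* spread over myeloid, mast, stromal and epithelial classes, while *Kdr*, *Tek* and *Apln* were concentrated in endothelium and *Flt1* in blood endothelium and pericytes.

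Among the ligands, *Vegfa* was found in many kinds of wound cell, and blood endothelium was among the lowest classes in both libraries. In WT_LW its level was highest in macrophages and monocytes, 301.5 CPM (95% Poisson interval 292 to 311). Neutrophils at 132 CPM (85.1 to 194), mast cells at 125 CPM (99.2 to 155) and dendritic cells at 120.5 CPM (113 to 129) came next and did not differ among themselves beyond their intervals. Fibroblasts and keratinocytes stood lower, at 46.7 and 44.99 CPM. Blood endothelial cells, with 7.86 CPM, were near the level of T cells, 9.96 CPM, which served as the background class. Lymphatic endothelial cells stood higher, at 27.9 CPM.

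In TLR9agonist_LW the order changed at the top. Mast cells led with 550.5 CPM (504 to 600), followed by macrophages and monocytes with 350.1 CPM (338 to 363), dendritic cells with 193 CPM (182 to 206) and neutrophils with 159 CPM (128 to 196). Dendritic cells and neutrophils overlapped in their intervals. Fibroblasts and keratinocytes reached 67.6 and 67.1 CPM. Lymphatic endothelium had 53.5 CPM, blood endothelium 11.9 CPM, T cells 11.03 CPM and Schwann cells 8.59 CPM.

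By UMIs, the sources of *Vegfa* lay more in the stroma and epidermis in the agonist library. Macrophages and monocytes held 57.0% of the 6939 *Vegfa* UMIs of WT_LW and 32.4% of the 9637 UMIs of TLR9agonist_LW. Fibroblasts and keratinocytes, in contrast, held larger shares in the agonist library, as the plot of *Vegfa* sources shows. Cell numbers differed in the same direction, since fibroblasts made up 8.28% and 19.6% of cells, keratinocytes 6.20% and 10.7%, and macrophages and monocytes 12.8% and 8.46%. Depth per cell differed too, with a median of 10846 and 23731 UMIs in keratinocytes, 18147 and 13332 in fibroblasts, and 8962 and 8067 in macrophages and monocytes. Of all UMIs, keratinocytes held 12.2% and 27.0%, fibroblasts 19.0% and 29.3%, and macrophages and monocytes 15.3% and 8.02%. The parts of cell numbers, depth and level were not tested. Counted over all cells, *Vegfa* had 81.0 and 86.7 CPM, and the log2 ratio was 0.10 (0.05 to 0.14).

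**Figure D2:**
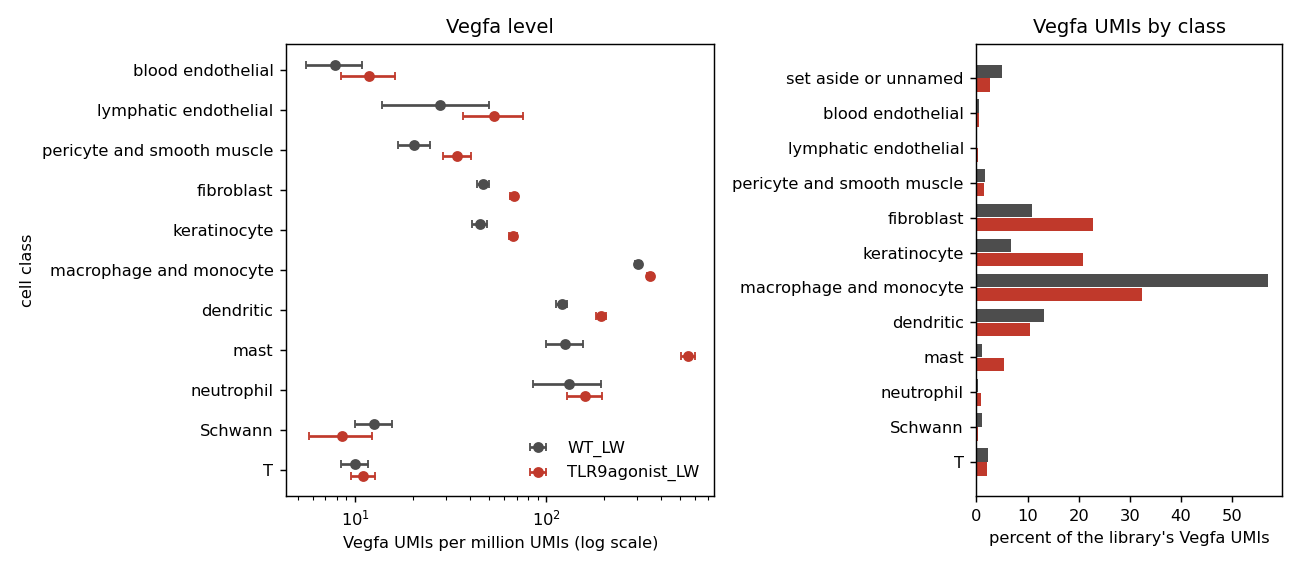
Left, *Vegfa* CPM (log axis) in each cell class, with points for the 2 libraries (grey WT_LW, red TLR9agonist_LW) and bars for the exact 95% Poisson interval. Right, the percentage of each library's *Vegfa* UMIs that came from each class: macrophages and monocytes gave 57.0% and 32.4%, and the mast cell points lie at 125 and 550.5 CPM.

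Within classes, the *Vegfa* ratio was positive in most cell types. It was 0.58 (0.43 to 0.72) in keratinocytes, 0.53 (0.41 to 0.66) in fibroblasts, 0.68 (0.55 to 0.81) in dendritic cells and 0.22 (0.15 to 0.28) in macrophages and monocytes. The median gene of these classes had a ratio of -0.44, -0.27, -0.28 and -0.24, so each *Vegfa* ratio stood further above the class median than above 0. In T cells the ratio, 0.15, had an interval that included 0 (-0.16 to 0.46).

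Keratinocytes and macrophages each held clusters that differed. In the keratinocyte cluster led by *Col17a1* and *Krt15*, genes of basal epidermis, *Vegfa* stood at 45.1 and 93.2 CPM (log2 ratio 1.05, 0.80 to 1.30), and in the cluster led by *Cst6* and *Krt79* it stood at 44.9 and 56.9 CPM (0.34, 0.16 to 0.52). In the macrophage cluster led by *F10*, *Mmp12* and *Ccl9* it stood at 428 and 576.5 CPM (0.43, 0.36 to 0.50). In the cluster led by *Ms4a7*, *C1qa* and *C1qc*, the C1q-bearing macrophages, it stood at 137 and 77.2 CPM (-0.83, -1.03 to -0.64). The 2 macrophage clusters therefore differed in opposite directions by more than counting error, and their cell numbers were 759 and 568 in WT_LW and 498 and 501 in TLR9agonist_LW.

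Mast cells, granule-bearing cells that store proteases and respond to IgE, showed the largest *Vegfa* ratio of the 11 classes. The class held 181 cells in WT_LW with 82 *Vegfa* UMIs and 437 cells in TLR9agonist_LW with 523 *Vegfa* UMIs. The level was 125 and 550.5 CPM, a 4.41-fold difference, a log2 ratio of 2.14 (1.80 to 2.50). In cells thinned to 1500 UMIs, 15.2% (9.51 to 22.4) of 132 mast cells in WT_LW and 42.0% (35.9 to 48.3) of 257 in TLR9agonist_LW had a *Vegfa* UMI. The thinning left out 49 and 180 shallower cells, and unthinned shares were 22.1% and 42.6%. T cells gave 1.42% and 1.70% after the same thinning and 4.34% and 4.54% before it. The median depth was 2313 and 1698 UMIs per mast cell and 4191 and 4484 per T cell.

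*Vegfc*, the lymphatic growth ligand, differed together with *Vegfa* in the mast cells. It had 30 UMIs in WT_LW and 187 in TLR9agonist_LW, or 45.6 and 197 CPM (log2 ratio 2.11, 1.55 to 2.72). Both genes passed the 2-fold limit, the only members with at least 50 UMIs in mast cells, against 12.1% of the 3680 genes with at least 50 UMIs there that were 2-fold higher and 5.49% that were 2-fold lower. The median gene of the class had a ratio of 0.18. Within the mast cells, summed fibroblast markers stood at 2742 and 6069 CPM and keratinocyte markers at 1039 and 2596 CPM, which is 3.15% to 6.10% and 2.15% to 6.66% of the level in those classes. *Vegfa* in fibroblasts and keratinocytes of the agonist library stood at 67.6 and 67.1 CPM, below its level in mast cells. The neutrophil list, apart from *Hdc*, which mast cells also express, ranged from 0 to 45.3 CPM per gene in mast cells of TLR9agonist_LW.

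Outside mast cells, *Vegfc* came from blood endothelium and fibroblasts. In blood endothelial cells the WT_LW level was 29.0 CPM and the TLR9agonist_LW level 20.2 CPM (log2 ratio -0.53, -0.97 to -0.09), and the class median of -0.35 lay inside that interval. In fibroblasts, the source of 41.0% of *Vegfc* UMIs in WT_LW and 62.3% in TLR9agonist_LW, it stood at 11.7 and 18.2 CPM (0.64, 0.40 to 0.88). The fibroblast cluster led by *Clec3b* and *Nov* stood at 9.57 and 23.3 CPM (1.28, 0.96 to 1.61), and the cluster led by *Crabp1* and *Prss35* at 16.9 and 10.8 CPM (-0.64, -1.04 to -0.24). The gene was listed at 0 UMIs in lymphatic endothelial cells of both libraries, where 3 UMIs would be 7.60 and 5.01 CPM.

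**Figure D3:**
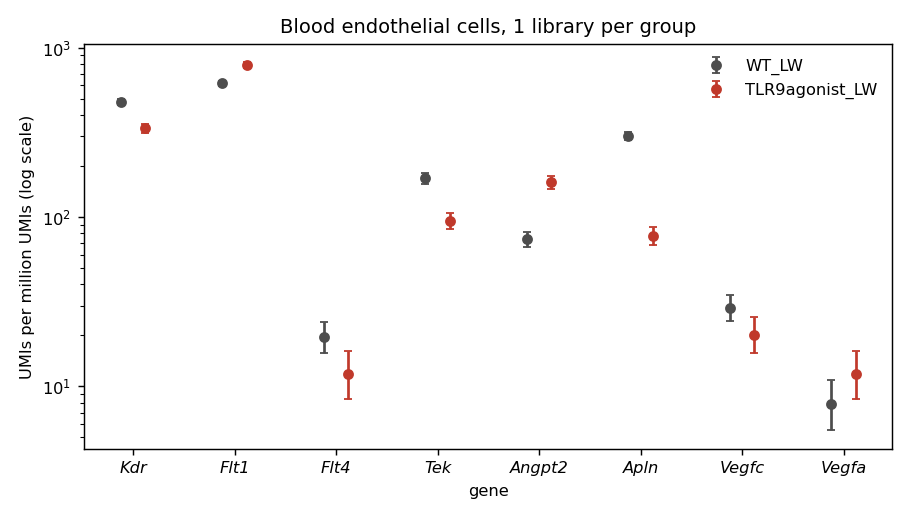
CPM (log axis) of 8 genes in blood endothelial cells, grey for WT_LW and red for TLR9agonist_LW, with exact 95% Poisson intervals. *Angpt2* and *Flt1* were higher in the agonist library, and *Kdr*, *Tek* and *Apln* were lower, with *Apln* at 300.2 and 77.7.

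Of the 9 genes, 8 had at least 50 UMIs in blood endothelial cells. Only *Angpt2* was at least 2-fold higher and only *Apln* at least 2-fold lower in TLR9agonist_LW. The *Angpt2* call lay near the limit, as its level was 2.17-fold higher, but 1.999-fold with each cell assigned by its own markers and 1.93-fold with all endothelial sub-clusters kept. Of the 9216 genes with at least 50 UMIs in this class, 3.40% were 2-fold higher and 16.8% were 2-fold lower. The median ratio of the 8 members was -0.52, and that of all 9216 genes -0.46. Among genes with at least 200 UMIs the median was -0.35, and ratios relative to it are named below as centred.

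*Kdr*, the main signalling receptor for VEGFA, had 2195 UMIs in blood endothelium of WT_LW and 1125 in TLR9agonist_LW, or 479 CPM (459 to 499.7) and 334 CPM (314.5 to 354). The log2 ratio was -0.52 (-0.63 to -0.42), and the centred ratio was -0.17. The lower level of *Kdr* was thus close to that of the median gene of the class. *Kdr* was detected in 47.8% (43.6 to 52.0) and 37.5% (32.3 to 42.9) of endothelial cells thinned to 1500 UMIs, and in 82.6% and 81.1% before thinning. In thinned T cells the shares were 0.416% and 0.227%, and in unthinned T cells 1.64% and 0.467%. The median endothelial cell had 6328 and 8452 UMIs.

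*Flt1*, the high-affinity VEGFA receptor whose soluble form acts as a trap, differed the other way. It had 2819 and 2652 UMIs, or 615 CPM (593 to 639) and 787 CPM (757 to 817), with a log2 ratio of 0.35 (0.28 to 0.43) and a centred ratio of 0.71. The intervals of the 2 libraries did not overlap. In thinned cells *Flt1* was detected in 56.3% (52.1 to 60.4) and 59.3% (53.9 to 64.6), which overlap, and in thinned T cells in 0.902% and 0.539%. Before thinning the shares were 87.0% and 91.9% in endothelium and 2.67% and 1.79% in T cells. The counts are per gene and do not separate the membrane-bound form from the soluble one.

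*Flt1* was also abundant outside the endothelium, in pericytes and vascular smooth muscle, the contractile cells that wrap vessels. There it had 420 CPM (402.5 to 437) in WT_LW and 467 CPM (446 to 488) in TLR9agonist_LW, a log2 ratio of 0.15 (0.07 to 0.24) against a class median of -0.36. Blood endothelial markers summed to 354 and 247 CPM in this class, 3.98% and 2.62% of their endothelial level, while *Kdr* stood at 2.41 and 1.21 CPM and *Tek* at 1.30 and 0.243 CPM. Pericytes and smooth muscle held 38.6% of *Flt1* UMIs in WT_LW and 32.7% in TLR9agonist_LW.

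In fibroblasts *Flt1* stood at 4.43 and 11.7 CPM (1.40, 1.03 to 1.78). *Flt1* was the only one of the 8 members with at least 50 UMIs in fibroblasts to be 2-fold higher, and *Kdr*, *Angpt2*, *Tek* and *Apln* were 2-fold lower there, against 3.91% of genes higher and 7.42% lower in this class. The 4 lower genes stood at or under 2.09 CPM in fibroblasts of TLR9agonist_LW, and the same 4 genes were at 0.453 to 1.41 CPM in its T cells. In WT_LW, *Tek* and *Apln* stood at 6.03 and 7.70 CPM in fibroblasts, against 1.28 and 3.07 CPM in T cells, with intervals that did not overlap. *Angpt2* and *Kdr* stood at 4.925 and 2.65 CPM in WT_LW fibroblasts, against 3.00 and 3.45 CPM in T cells, with intervals that overlapped. The *Flt1* difference lay mainly in the fibroblast cluster led by *Clec3b*, 4.64 and 15.3 CPM (1.72, 1.27 to 2.19), and in the *Crabp1* cluster *Flt1* stood at 4.45 and 5.96 CPM, with an interval from -0.27 to 1.16.

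*Flt4* marked the lymphatic endothelium, the vessels that drain fluid from the wound. The class held 46 cells in WT_LW and 47 in TLR9agonist_LW and expressed all 9 of its markers, among them *Prox1*, *Lyve1* and *Mmrn1*. *Flt4* stood at 889 CPM (799 to 987) and 819 CPM (748 to 894), a log2 ratio of -0.12 (-0.32 to 0.08). The sign turned with the choice of lymphatic cells, to 0.28 without the Harmony correction, 0.25 by own markers and 0.34 with all sub-clusters kept. Blood endothelium had 19.7 and 11.9 CPM (-0.73, -1.30 to -0.18). *Kdr* was also abundant in lymphatic endothelium, with 395 CPM (336 to 462) and 514.5 CPM (459 to 575), a log2 ratio of 0.38 (0.10 to 0.67). In TLR9agonist_LW the lymphatic *Kdr* level exceeded the blood endothelial one beyond both intervals, whereas in WT_LW the intervals overlapped. *Flt1* in this class was at 5.07 and 5.01 CPM, near the T cell level of 5.56 and 3.90 CPM.

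Among the angiopoietins, *Angpt1*, the vessel-stabilising ligand, came from mural cells and fibroblasts. Pericytes and smooth muscle had 47.1 CPM (41.4 to 53.2) and 38.8 CPM (33.1 to 45.3), a log2 ratio of -0.28 (-0.57 to 0.01). Fibroblasts had 9.05 CPM (7.65 to 10.6) and 11.4 CPM (10.3 to 12.7), a log2 ratio of 0.34 (0.06 to 0.62). The first interval included 0, and the second lay above it. In the fibroblasts, the cluster led by *Clec3b* had 12.1 and 17.7 CPM (0.54, 0.24 to 0.85), and the cluster led by *Crabp1* had 2.91 and 1.29 CPM from 15 and 16 UMIs.

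The main source of *Angpt1* UMIs was mural cells in WT_LW, 57.1% of 445 UMIs, and fibroblasts in TLR9agonist_LW, 65.2% of 572 UMIs. Fibroblasts made up 8.28% and 19.6% of cells, and pericytes and smooth muscle 6.86% and 4.28%. The parts of cell numbers and of levels in this difference were not tested. In blood endothelial cells *Angpt1* had 1 UMI in WT_LW and 0 in TLR9agonist_LW, where 3 UMIs would be 0.89 CPM. Over all cells it stood at 5.19 and 5.15 CPM (-0.01, -0.19 to 0.17).

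*Angpt2*, which destabilises vessels and is released by activated endothelium, was higher in blood endothelium of the agonist library. It had 338 UMIs in WT_LW and 539 in TLR9agonist_LW, or 73.8 CPM (66.1 to 82.1) and 159.9 CPM (147 to 174), a 2.17-fold difference with a log2 ratio of 1.12 (0.92 to 1.32) and a centred ratio of 1.47. Of the 9216 genes in the class, 97.2% had a lower ratio. In thinned cells it was detected in 8.47% (6.31 to 11.1) and 15.6% (11.9 to 19.9), against 0.694% and 0.0851% of thinned T cells. Unthinned shares were 22.5% and 38.7% in endothelium and 1.48% and 0.66% in T cells. Over all cells, in contrast, *Angpt2* was lower in the agonist library, at 22.9 and 13.3 CPM (-0.78, -0.88 to -0.69). Blood endothelium held 17.2% of its UMIs in WT_LW and 36.5% in TLR9agonist_LW, and pericytes and smooth muscle held 54.6% and 34.1%.

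The other vascular classes went the opposite way for *Angpt2*. Pericytes and smooth muscle had 198 CPM (187 to 211) and 122 CPM (112 to 133.5), a log2 ratio of -0.70 (-0.85 to -0.54) and a centred ratio of -0.34. Lymphatic endothelium had 578 CPM (505 to 658) and 284 CPM (243 to 330.0), a log2 ratio of -1.02 (-1.32 to -0.73), where the median gene stood at 0.01. It stayed lower but under 2-fold without the Harmony correction (-0.65), by own markers (-0.68) and with all sub-clusters kept (-0.63). *Angpt2* was the only one of 3 members with at least 50 UMIs in lymphatic endothelium past 2-fold, with 2.73% of genes higher and 4.93% lower in that class. None of the 5 members measured in pericytes and smooth muscle passed 2-fold, with 3.44% of genes higher and 12.6% lower.

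**Figure D4:**
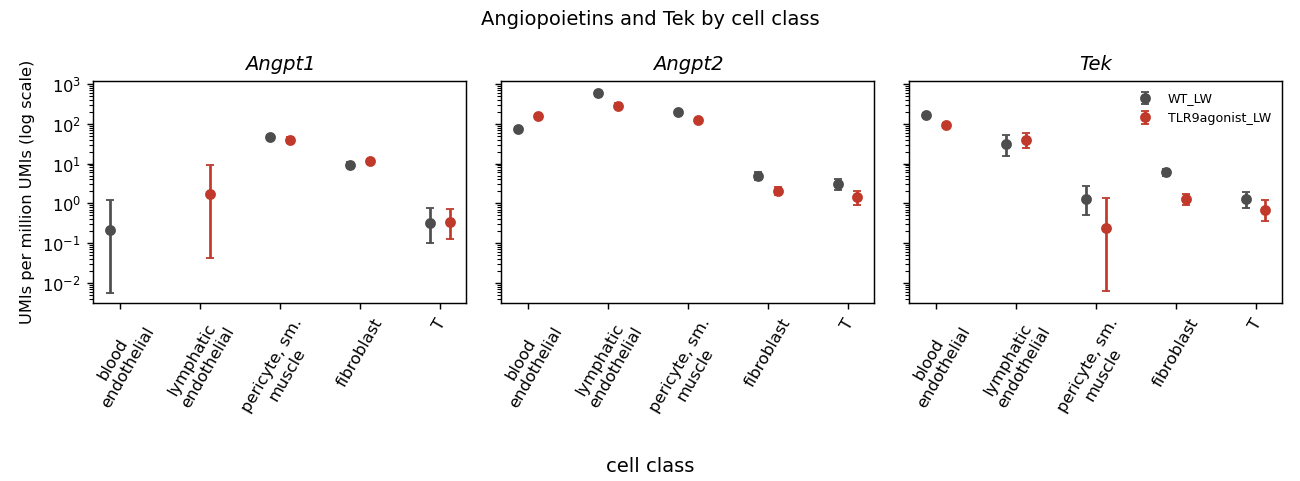
*Angpt1*, *Angpt2* and *Tek* levels (CPM, log axis) in 3 vascular classes, fibroblasts and T cells, grey for WT_LW and red for TLR9agonist_LW, with exact 95% Poisson intervals; classes without a UMI have no point. *Angpt2* was higher in the agonist library in blood endothelium, at 73.8 and 159.9, and lower in lymphatic endothelium and pericytes, while *Tek* was lower in blood endothelium, at 169 and 95.2.

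*Tek*, the angiopoietin receptor, was found mainly in endothelium. Blood endothelial cells had 775 and 321 UMIs, or 169 CPM (157.5 to 181.5) and 95.2 CPM (85.1 to 106), a log2 ratio of -0.83 (-1.02 to -0.64) and a centred ratio of -0.48. *Tek* was detected in 26.1% (22.5 to 29.9) and 12.7% (9.33 to 16.7) of thinned endothelial cells, and in 63.9% and 53.5% before thinning. In T cells the thinned shares were 0.0694% and 0.199% and the unthinned ones 0.643% and 0.330%. Lymphatic endothelium had 30.4 and 38.4 CPM from 12 and 23 UMIs, with an interval of the ratio from -0.73 to 1.48. Of the 9216 genes in blood endothelium, 25.2% had a lower ratio than *Tek*, so its place in the class was not extreme. Within blood endothelium, the ligand *Angpt2* and its receptor thus differed in opposite directions.

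*Apln* showed the largest difference among the 9 genes in blood endothelium. It had 1375 UMIs in WT_LW and 262 in TLR9agonist_LW, or 300.2 CPM (284.5 to 316.5) and 77.7 CPM (68.6 to 87.7), 3.86-fold lower with a log2 ratio of -1.95 (-2.15 to -1.76) and a centred ratio of -1.60. Only 0.955% of the 9216 genes in the class had a lower ratio. In thinned cells *Apln* was detected in 19.9% (16.7 to 23.5) and 7.08% (4.59 to 10.3), with 36.2% and 21.5% before thinning. T cells had 0.5205% and 0.114% thinned and 1.51% and 0.220% unthinned. Blood endothelial cells held 76.1% of all *Apln* UMIs in WT_LW and 79.9% in TLR9agonist_LW.

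*Apln* was also lower in the agonist library in classes where it was rare. T cells had 3.07 and 0.453 CPM and fibroblasts 7.70 and 0.767 CPM, while mast cells, neutrophils and lymphatic endothelium were listed at 0 in both libraries. Over all cells, where the endothelial share also differed, *Apln* stood at 21.1 and 2.95 CPM (-2.84, -3.01 to -2.67). *Kdr* and *Tek* were likewise 2-fold lower over all cells, with ratios of -1.02 (-1.11 to -0.94) and -1.45 (-1.61 to -1.29). These 3 were the members past 2-fold over all cells, where 3.80% of the 15442 genes with at least 50 UMIs were higher and 11.7% lower.

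The blood endothelium was heterogeneous, and the members varied among its sub-clusters. A tip-like sub-cluster led by *Col13a1*, *Esm1* and *Nes* held 168 and 104 cells, and a venous-like one led by *Selp* and *Sele*, with the inflammatory genes *Csf3*, *Cxcl9* and *Cxcl10* among its leading genes, held 168 and 166 cells. An arterial-like one led by *Gja5*, *Sema3g* and *Npr3* held 84 and 20 cells. A further one, unnamed and led by *Ptgs1*, held 127 and 45 cells, and 1 led by *Lmbr1l* held 35 and 3. Cells of the *Ptgs1* sub-cluster were shallower, with a median of 3472 and 4845 UMIs, than tip-like cells, with 7794 and 10700.

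**Figure D5:**
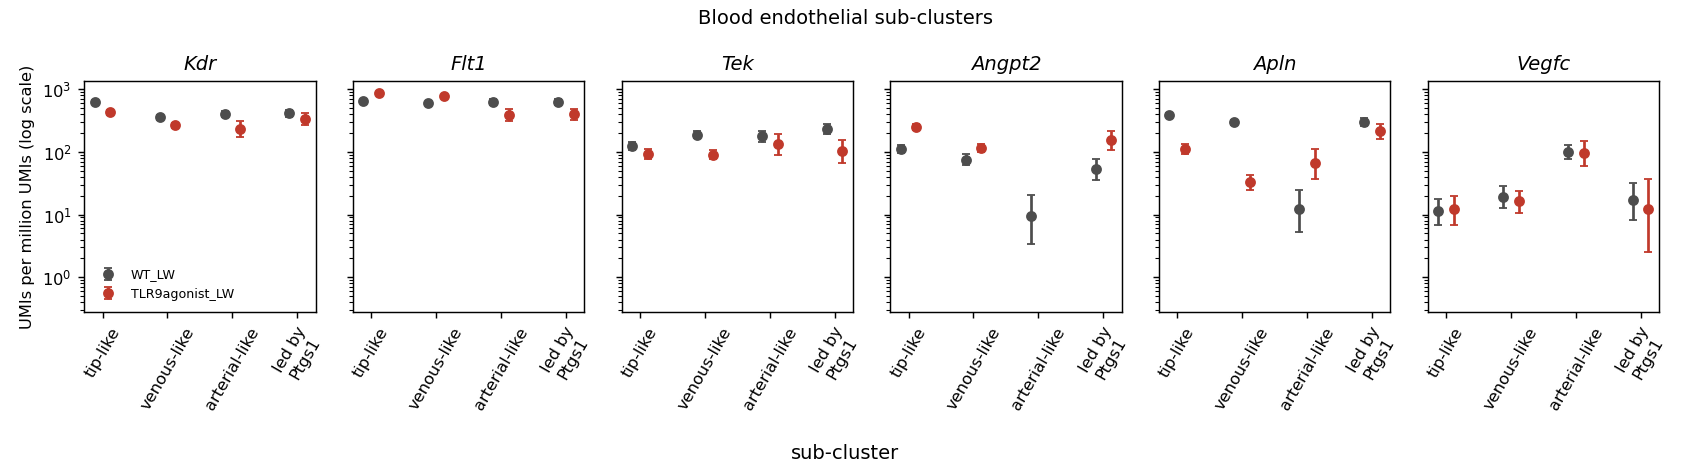
Levels of 6 genes (CPM, log axis) in 4 blood endothelial sub-clusters, grey for WT_LW and red for TLR9agonist_LW, with exact 95% Poisson intervals; a sub-cluster without a UMI has no point. *Apln* was lower in the tip-like and venous-like cells of the agonist library, and *Angpt2* was higher in both.

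*Apln* in WT_LW was high in tip-like cells, 393 CPM, venous-like cells, 296 CPM, and the cells led by *Ptgs1*, 304.5 CPM, and low in arterial-like cells, 12.4 CPM. In TLR9agonist_LW these were 111, 33.1, 216 and 67.4 CPM. The log2 ratio was -1.82 (-2.10 to -1.55) in tip-like cells, -3.16 (-3.61 to -2.74) in venous-like cells and -0.49 (-0.97 to -0.04) in the cells led by *Ptgs1*. The arterial-like value had the opposite sign, 2.44 (1.09 to 3.90), from 8 and 14 UMIs.

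*Angpt2* was higher in the agonist library in each of the 3 sub-clusters in which it was abundant. Tip-like cells had 111 and 250.1 CPM (1.17, 0.90 to 1.44), venous-like cells 74.9 and 117 CPM (0.65, 0.29 to 1.01), and the cells led by *Ptgs1* 53.3 and 153.9 CPM (1.53, 0.80 to 2.27). Arterial-like cells held 6 UMIs in WT_LW and 0 in TLR9agonist_LW.

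*Kdr* was highest in tip-like cells of both libraries, 633 and 429 CPM, and its ratio was negative in the 4 sub-clusters, from -0.81 in arterial-like to -0.28 in the cells led by *Ptgs1*, where the interval (-0.66 to 0.09) included 0. *Tek* was lower by the most in venous-like cells, 188 and 90.8 CPM (-1.05, -1.36 to -0.74), and in the cells led by *Ptgs1*, 234 and 104 CPM (-1.17, -1.85 to -0.55). Its ratio was -0.41 (-0.75 to -0.08) in tip-like cells and -0.39 (-1.04 to 0.21) in arterial-like cells. The centred *Tek* ratios were -0.69 in venous-like cells, -0.82 in those led by *Ptgs1*, -0.06 in tip-like cells and -0.04 in arterial-like cells. *Flt1* was higher in tip-like cells, 646 and 866.5 CPM (0.42, 0.30 to 0.55), and in venous-like cells, 594 and 779 CPM (0.39, 0.26 to 0.52). It was lower in arterial-like cells, 623 and 395 CPM (-0.66, -1.02 to -0.31), and in those led by *Ptgs1*, 626 and 403 CPM (-0.63, -0.97 to -0.31). *Vegfc* was highest in arterial-like cells, 101 and 96.3 CPM, with 11.3 to 19.3 CPM in the other 3 sub-clusters of WT_LW. Arterial-like cells held 65 of the 133 blood endothelial *Vegfc* UMIs in WT_LW and 20 of the 68 in TLR9agonist_LW. The *Vegfc* ratio was -0.07 in arterial-like, 0.10 in tip-like and -0.25 in venous-like cells, each with an interval that included 0. Arterial-like cells were 14.2% and 5.81% of the class.

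The rest of the pathway in blood endothelium was described from a list of 48 further genes, of which 44 had at least 50 UMIs. Of these 44, 8 were 2-fold higher and 5 were 2-fold lower in TLR9agonist_LW, with a median ratio of -0.18. Over all genes of the class these calls were 3.40% and 16.8%. The lists below overlap in *Pgf* and *Adm*, and several of their genes also served as markers.

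Of 8 further ligand genes, 5 had at least 50 UMIs, and 3 of these were 2-fold higher: *Angptl4*, which is induced by low oxygen and fatty acids, at 24.2 and 189.8 CPM (2.97, 2.68 to 3.27), adrenomedullin (*Adm*) at 30.6 and 90.5 CPM (1.57, 1.27 to 1.86), and placental growth factor (*Pgf*), a ligand of VEGFR1, at 90.4 and 252 CPM (1.48, 1.31 to 1.65). None was 2-fold lower, and the ratios of *Vegfb* (0.06, -0.57 to 0.69) and *Pdgfb* (0.12, -0.01 to 0.26) had intervals that included 0. The ligands *Apln* and *Vegfc*, described above, stood lower in the agonist library. *Pgf* was also a marker of the tip-like sub-cluster.

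Of 10 co-receptors and partners, 1 was higher and 2 were lower. The integrin subunit *Itgav* stood at 50.7 and 144 CPM (1.51, 1.28 to 1.74). The apelin receptor *Aplnr* stood at 200.4 and 56.7 CPM (-1.82, -2.06 to -1.60), in the same direction as its ligand. *Ptprb*, the phosphatase that restrains Tie2, stood at 1236 and 578 CPM (-1.10, -1.17 to -1.02).

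Of 20 regulators of sprouting, Notch signalling and endothelial identity, 2 were higher and 3 were lower. The tip cell gene *Esm1* stood at 98.9 and 214 CPM (1.11, 0.94 to 1.28) and *Pgf* was the other. The netrin receptor *Unc5b* stood at 93.7 and 32.6 CPM (-1.52, -1.84 to -1.22), *Plcg1*, which signals below VEGFR2, at 108 and 45.7 CPM (-1.24, -1.51 to -0.97), and *Notch4* at 91.0 and 41.8 CPM (-1.12, -1.41 to -0.84). The endothelial transcription factor genes *Erg*, *Fli1* and *Sox18* did not pass 2-fold.

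Of 12 hypoxia-related genes, 11 had at least 50 UMIs, and their ratios were mixed. Of these 11, 4 were 2-fold higher and none was 2-fold lower, 7 had a ratio above 0, and the median ratio was 0.37. The glucose transporter *Slc2a1* stood at 31.7 and 109 CPM (1.78, 1.50 to 2.07) and the hypoxia-inducible factor gene *Hif1a* at 412 and 994 CPM (1.27, 1.19 to 1.35). *Egln3*, a prolyl hydroxylase, stood at 7.42 and 15.7 CPM (1.08, 0.43 to 1.75), and *Adm* was the other. *Ndrg1* (0.64, 0.54 to 0.74) and *Ddit4* (0.37, 0.17 to 0.58) were higher by less than 2-fold. *Epas1* (-0.51, -0.61 to -0.42) and *Vhl* (-0.71, -1.42 to -0.03) were lower by less than 2-fold. The ratios of *Bnip3* (-0.11), *Pdk1* (-0.19) and *Ankrd37* (0.18) had intervals that included 0. *Vegfa* itself, also a target of low oxygen, had 36 and 40 UMIs in blood endothelium, or 7.86 and 11.9 CPM, with an interval of the ratio from -0.09 to 1.29.

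The genes whose pattern over the 11 classes was most like that of each member were found by Pearson's r of log2(CPM + 1) in each library, among 13467 genes with at least 200 UMIs. The points are 11 classes that share a library, and r describes their pattern. *Kdr* was followed most closely by *Myct1* (r = 0.99 in WT_LW and 0.98 in TLR9agonist_LW), *Cldn5* and *Sox18*. *Tek* was followed by *Thsd1* (0.95 and 0.95), *Adgrl4* and *Ptprb*, and *Flt1*, shared between endothelium and pericytes, by *Esam* (0.96 and 0.93), *Chst7* and *Msx1*. *Flt4* was followed by *Tc2n* (0.99 and 0.98), *Gpm6a* and *Klhl4*.

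For the ligands the values were lower in part. *Apln* was followed by *Lhx6* (0.96 and 0.97), *Asb4* and *Tacr1*, and *Angpt2* by *Pcdh12* (0.94 and 0.96), *Stc1* and *Tspan12*. *Angpt1* was followed by *Mgp* (0.87 and 0.88), *Cyp26b1* and *Prrx1*. *Vegfa* was followed by *Adora2b* (0.89 and 0.91), an adenosine receptor gene, *Basp1* and *Emilin2*, and *Vegfc* by *Adamts9* (0.91 and 0.86), *Papss2* and *Tiam2*.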

How the data were processed

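The study measured single-cell RNA of the wound centre in 2 libraries, each made from pooled mice. The authors separated and dissociated epidermis and dermis, recombined the cells and made droplet libraries that read the 3′ end of transcripts. The deposited values are counts of UMIs for each gene in each barcode called as a cell, with no normalization by the authors. Their processing notes name fastp, Cell Ranger, Seurat and the build mm9, and the matrix header gives Cell Ranger version 4.0.0. Promoter positions come from RefSeq on GRCm38.p6, joined by symbol, with entries for 7 of the 9 genes, and no coordinate was converted.

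WT_LW held 12800 deposited cells with 99374045 UMIs and TLR9agonist_LW 13751 cells with 132339022 UMIs. Cells with at least 500 UMIs, 300 genes and at most 15% mitochondrial UMIs were kept. Scrublet scores were computed, and because the automatic threshold called 0 cells, the top-ranked cells (9.16% and 10.6%) were removed as predicted doublets, and doublets can remain. With scanpy 1.11.5 (Python 3.11.15) each cell was scaled to 10000 UMIs on a log scale, 2000 variable genes and 30 components were corrected for library with Harmony, and 20 neighbours were clustered by Leiden at resolution 1. Endothelial cells were clustered again at resolution 0.5. A cluster took a class's name when 3 or more markers, and 50% of that list, were seen in 10% of its cells or more and exceeded the other clusters by a log2 fold of 0.5. It stayed unnamed when its top 10 genes held more markers of another class or its cells were shallow. The 50% limit was added after a cluster led by *Elovl3* had been named keratinocyte. The keys *Figf* and *Gucy1b3* stand in the files for *Vegfd* and *Gucy1b1*.

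UMIs were summed per library and class. CPM carry exact Poisson intervals, ratios the exact interval given the summed count, and shares Clopper-Pearson intervals, all at 95%. A difference is called past 2-fold when the class holds at least 50 UMIs of the gene. The calculation of ratios was tested on simulated data. The text names the 9 genes in every class, the listed pathway genes past 2-fold in blood endothelium, and the 3 genes most like each member. A few values of further clusters were chosen after they were seen. The member genes and the lists were chosen with earlier results of these data known. The alternatives of the closing section were 8 settings, with 4 more chosen after seeing the data.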

Additional observations from a re-analysis of the deposited data

Results flagged for a closer look

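In these data 5 genes differed in opposite directions in a pair of cell classes, clusters or sub-clusters, each with an interval clear of 0, at least 10 CPM in both libraries and at least 50 UMIs. With 1 library per group the difference itself was not tested. *Angpt2* was higher in TLR9agonist_LW in blood endothelium (log2 ratio 1.12) and lower in lymphatic endothelium (-1.02), a gap of 2.14, and it was lower in pericytes and smooth muscle as well. The lymphatic ratio was -0.65 without the Harmony correction, -0.68 by own markers and -0.63 with all sub-clusters kept. *Vegfc* was higher in mast cells (2.11) and lower in blood endothelium (-0.53), a gap of 2.64. The endothelial ratio was -0.17 relative to the median gene of that class. It was -0.07 in the arterial-like cells, which had the highest *Vegfc* level among the sub-clusters and made up 14.2% and 5.81% of the class. *Kdr* was higher in lymphatic endothelium (0.38) and lower in blood endothelium (-0.52), a gap of 0.90, although the medians of all genes in these classes also differed, at 0.01 and -0.35. *Vegfa* was higher in the macrophage cluster led by *F10*, *Mmp12* and *Ccl9* (0.43) and lower in the one led by *Ms4a7*, *C1qa* and *C1qc* (-0.83), a gap of 1.26. *Flt1* was higher in tip-like blood endothelium (0.42) and lower in arterial-like blood endothelium (-0.66), a gap of 1.08, and the arterial-like sub-cluster had 20 cells in TLR9agonist_LW.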

How the results depend on the processing

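No paired analysis was possible because each group had 1 library. Across 26 results and their alternatives, 247 values were computed, 205 lay within the limit set for the result and 42 lay outside it. For ratios this limit was the counting interval of the value given in the report. Counts of members past 2-fold in blood endothelium have no such interval, and a fixed fold limit served instead. The sign turned in 4 of these 42, for *Flt4* in lymphatic endothelium and *Angpt1* in pericytes and smooth muscle, whose own intervals included 0. The share ratio of blood endothelial cells was -0.75 with the stricter cell filter and -0.77 at Leiden resolution 2. At that resolution fewer cells were named blood endothelial, 413 in WT_LW and 275 in TLR9agonist_LW. Centring on the median gene gave *Vegfa* 0.49 in all cells, 1.02 in keratinocytes, 0.45 in macrophages and monocytes and 0.81 in fibroblasts. In blood endothelium it gave *Kdr* -0.17, *Flt1* 0.71, *Tek* -0.48, *Angpt2* 1.47 and *Apln* -1.60, and in pericytes and smooth muscle *Angpt1* 0.08 and *Angpt2* -0.34. *Vegfa* over all cells was 0.05 with the stricter filter, 0.34 with equal weight per cell and 0.20 without mitochondrial, ribosomal protein and the 50 most abundant genes. In macrophages and monocytes these were 0.05 with equal weight and 0.29 without those genes. With each cell assigned by its own markers, *Vegfa* was 0.08 in macrophages and monocytes and 0.20 in fibroblasts, *Angpt2* was -0.54 in pericytes and smooth muscle, and *Angpt2* in blood endothelium was 1.999-fold higher, so that 0 members were 2-fold higher there. That count was also 0 with all endothelial sub-clusters kept, a setting chosen after seeing the data, where *Angpt2* was 0.95. *Flt1* in blood endothelium was 0.44 at Leiden resolution 2 and 0.25 with equal weight. *Apln* was -2.16 at that resolution and -2.19 with all sub-clusters kept. *Flt4* in lymphatic endothelium was 0.28 without the Harmony correction, 0.25 by own markers and 0.34 with all sub-clusters kept, and there *Angpt2* was -0.65, -0.68 and -0.63. *Vegfa* and *Vegfc* in mast cells stayed within their intervals under each alternative run. Except for centring, which changes the reference, the cause of these differences was not tested. One library per group sets the limit, and depth limits *Vegfa* and *Flt4* in blood endothelium and lymphatic *Tek*.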

Other observations

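*Vegfa* was also measured in a cluster that stayed unnamed. The cluster was led by *Xcl1*, *Cd8b1* and *Cd8a*, with 570 and 273 cells, and its top genes held *Ly6c2*, a marker on the macrophage and monocyte list, and none of the T cell list. Summed T cell markers stood at 4065 and 3798 CPM, against 3954 and 3455 CPM in the T cell class. Summed macrophage and monocyte markers stood at 1514 and 1257 CPM, against 549 and 343 CPM in T cells and 22101 and 18960 CPM in macrophages and monocytes, and their part in the *Vegfa* level was not tested. In this cluster the *Vegfa* level of WT_LW was 77.1 CPM and the TLR9agonist_LW level 96.6 CPM, above the 9.96 and 11.03 CPM of the T cell class. The interval of the log2 ratio, 0.33, ran to 0.65 and touched 0. Among dendritic cells, the cluster led by *Il12b* and *Ccl22* had 34.5 and 74.5 CPM (1.11, 0.42 to 1.84), and the cluster led by *Cd207* and *Cd209a* had 130 and 216 CPM (0.74, 0.60 to 0.87). Pericytes and smooth muscle, neutrophils and Schwann cells had *Vegfa* ratios of 0.75 (0.38 to 1.12), 0.27 (-0.38 to 0.98) and -0.55 (-1.22 to 0.08).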
